A study of Mus musculus with 2 samples.

Results

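The 10 genes described here encode surface proteins that take part in engulfment, scavenging, lipopolysaccharide sensing or macrophage growth, and Csf1, the ligand of Csf1r. They are the growth factor Csf1 and its receptor Csf1r, the TAM receptor kinases Mertk and Axl, the engulfment receptor Megf10, the TIM family receptor Havcr2, the endocytic receptor Lrp1, the scavenger receptor Scarb1, the lipopolysaccharide coreceptor Cd14 and the lysosomal and surface glycoprotein Cd68. They were chosen by gene name with earlier results of these arrays known, so their values are given as a description. Every probe set annotated to a single one of these genes was taken, 19 probe sets for 10 of the 18193 genes on the array.

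RNA came from 3T3-L1, a line of mouse preadipocytes that turn fat-like on induction. Cells received a control siRNA (siGL3) or an siRNA against Phf21a, which encodes BHC80, a histone-binding subunit of an LSD1-containing corepressor complex. All were grown in DMEM with 25 mM glucose and 10% FBS, were given insulin, dexamethasone and 3-isobutyl-1-methylxanthine 24 h after transfection, and were harvested 24 h after that. Each group has 1 array, made from 1 ug of total RNA, so there is no replicate error and no test was possible.

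Professional phagocytes recognise dying cells through phosphatidylserine on their surface. TIM family proteins bind it directly, whereas TAM kinases bind it through bridging ligands such as GAS6 and protein S, and integrins with an alpha v chain through the bridging protein MFGE8. MEGF10 and LRP1 signal through the adaptor GULP1. CSF1R, bound by CSF1 or IL-34, drives survival and growth of macrophages. Preadipocytes share several surface proteins with macrophages and can take up particles.

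A ratio here is always the Phf21a siRNA array over the control array. The error given with a log2 ratio is a local spread. It was taken from the log2 ratios of the 1000 genes (or probe sets) of most similar signal, as the gap from their 16th to their 84th percentile over 2. It describes 1 array against 1 array, includes true differences, and is not the spread between cultures. Probe sets with a signal of 51.3 or more on either array, the pooled median, count as detected. Of the 19 probe sets 18 were detected, all of them above that limit on both arrays. None of their ratios thus uses a signal under the limit, though each group still rests on 1 array. The trimmed mean signal was 500 on each array, the 3'/5' ratio of the Gapdh control was 0.792 with control siRNA and 0.816 with Phf21a siRNA, and that of the Actb control was 1.15 and 1.22. The brightest probe set of the targeted gene, Phf21a, had a signal of 768 with control siRNA and 306 with Phf21a siRNA, 2.51-fold lower (-1.33 ± 0.52). Its other detected probe sets were 2.54-fold lower (592 and 233) and 1.66-fold lower (111 and 67.0). A further probe set was undetected at 39.2 and 43.8.

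Upstream sequence is shown for 4 of the 6 genes that had a window. They were picked because Havcr2, Mertk and Cd68 were all higher while Csf1, the ligand, was lower. Each is the 250 bases before the annotated start, 5′ to 3′ on the gene's own strand, from RefSeq on GRCm38.p6. The windows are chr11:46454681-46454930 (plus strand) for Havcr2, chr2:128698665-128698914 (plus) for Mertk, chr11:69666171-69666420 (minus) for Cd68 and chr3:107760470-107760719 (minus) for Csf1. Capitals mark matches on either strand to an ETS and PU.1 core (GGAAGT), the AP-1 motif (TGANTCA), a GC box (GGGCGG) or a CRE core (TGACGT).
Havcr2: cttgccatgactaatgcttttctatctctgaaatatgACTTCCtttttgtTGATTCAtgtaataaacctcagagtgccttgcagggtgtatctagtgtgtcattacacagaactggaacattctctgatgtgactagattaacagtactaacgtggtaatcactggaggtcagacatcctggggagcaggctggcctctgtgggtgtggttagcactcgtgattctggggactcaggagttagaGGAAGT
Mertk: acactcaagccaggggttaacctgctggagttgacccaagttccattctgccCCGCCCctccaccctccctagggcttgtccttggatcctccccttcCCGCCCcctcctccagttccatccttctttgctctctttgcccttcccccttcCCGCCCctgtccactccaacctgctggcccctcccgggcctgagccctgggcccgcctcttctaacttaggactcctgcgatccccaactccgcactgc
Cd68: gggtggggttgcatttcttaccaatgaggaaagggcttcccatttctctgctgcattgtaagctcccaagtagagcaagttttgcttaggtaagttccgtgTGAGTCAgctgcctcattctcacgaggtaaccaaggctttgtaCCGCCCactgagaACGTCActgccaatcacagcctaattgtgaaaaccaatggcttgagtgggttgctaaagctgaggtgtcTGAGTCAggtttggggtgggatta
Csf1: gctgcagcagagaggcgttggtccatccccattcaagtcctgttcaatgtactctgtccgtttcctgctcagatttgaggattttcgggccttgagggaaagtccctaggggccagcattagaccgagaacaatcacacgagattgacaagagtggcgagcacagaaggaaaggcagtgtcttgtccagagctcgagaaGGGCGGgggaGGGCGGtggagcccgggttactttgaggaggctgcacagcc
The Havcr2 window held 2 matches to the ETS and PU.1 core, the nearer ending at the last base before the start, and 1 to AP-1. Cd68 held 2 AP-1 matches, 1 GC box and 1 CRE core. Mertk held 3 GC boxes and Csf1 held 2, with no match to the other 3 motifs. Of 32851 annotated mouse promoter windows of the same length, 19.7% held the ETS and PU.1 core, 6.75% AP-1, 32.7% a GC box and 6.47% the CRE core. Of the 10 genes 6 had a window in the table, and the ones for Axl and Lrp1 held GC boxes alone. Megf10, Csf1r and Cd14, which were also higher, and Scarb1 had no window. These matches describe letters and were not tested against binding.

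Across the 10 genes, 6 were at least 1.5-fold higher on the Phf21a siRNA array (Havcr2, Megf10, Mertk, Csf1r, Cd68 and Cd14), a size reached by 15.1% of the 11301 detected genes and by 14.5% of those within the signal range of the 10. A single gene, Csf1, was at least 1.5-fold lower, as were 13.9% of detected genes and 11.5% within that range. Axl, Lrp1 and Scarb1 lay between. The median log2 ratio was 0.82, against 0.03 for all detected genes. At 2-fold, 4 were higher (5.66% of all genes) and 0 lower (5.44%), and at 3-fold 2 were higher (1.66%) and 0 lower (1.83%). Since these ratios were known when the genes were put together, the counts are no evidence about receptors of this kind in general. In a bulk sample, a change in the number of cells of a type and a change in RNA per cell cannot be told apart.

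**Figure D1:**
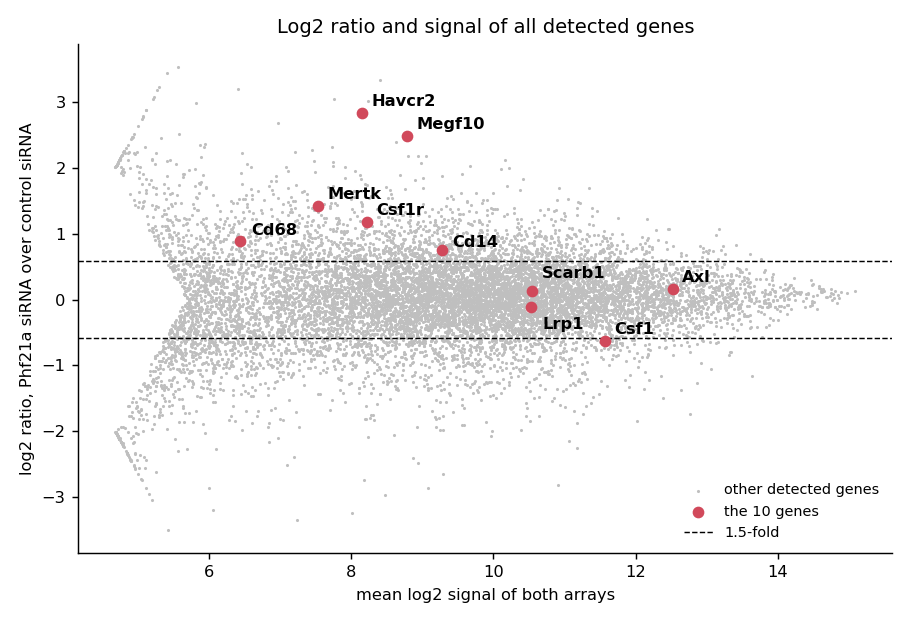
Log2 ratio (Phf21a siRNA over control siRNA) against the mean log2 signal of both arrays, for 11301 detected genes (grey) and the 10 genes (red), with dashed lines at 1.5-fold. Havcr2 at 2.83 and Megf10 at 2.48 stand near the top edge for their signal, and Csf1 at -0.63 lies just past the lower line.

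The scaling of the arrays bears on every ratio. Poly-A control RNAs, which are added before labelling, were brighter on the Phf21a siRNA array by the median of 24 probe sets. Scaling to that median shifts the median of all genes by -0.73. The shares of genes past 1.5-fold upwards and downwards then become 2.86% and 58.7%. With the 18 hybridisation control probe sets the shift is -0.23, and the shares are 8.91% and 23.3%. Several probe sets of each kind read the same control, so they are not separate observations. Ratios below are on the deposited scale, and any positive log2 ratio smaller than those shifts changes sign under the respective scaling. Under poly-A scaling Havcr2, Megf10 and Mertk stayed at least 1.5-fold higher, while Csf1r, Cd68 and Cd14 did not.

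The receptors that bind dying cells are given first. Havcr2 encodes TIM-3, which binds phosphatidylserine and galectin-9 and restrains T cells (Entrez gene 171285, 1 probe set). Its signal was 107 with control siRNA and 764 with Phf21a siRNA, 7.13-fold higher (log2 ratio 2.83 ± 0.56). It ranked 14 of 11301 detected genes from the highest ratio down. The other TIM family receptors on the array were not detected, with signals of 1.47 and 3.17 for Havcr1, 3.44 and 5.74 for Timd2 and 11.7 and 1.85 for Timd4 on the control and Phf21a siRNA arrays. Of the 4 TIM genes, Havcr2 alone was detected.

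Megf10 encodes a multiple EGF-like domain receptor that glia use to engulf dying cells and synapses (Entrez gene 70417, 1 probe set). Its signal was 188 with control siRNA and 1050.3 with Phf21a siRNA, 5.60-fold higher (2.48 ± 0.53), and it ranked 22. Its relatives Megf11 (26.7 and 20.3) and Megf6 (45.7 and 35.0) were under the detection limit on both arrays. Pear1, a further relative known from platelets, had signals of 314 and 203 (-0.63 ± 0.58), and the 3 detected of its 4 probe sets ranged from -1.22 to -0.10. Gulp1, the adaptor that MEGF10 signals through, had signals of 641 and 779, a log2 ratio of 0.28 ± 0.53, inside its local spread.

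Mertk encodes a kinase that macrophages need to clear dying cells (Entrez gene 17289, 1 probe set). Its signal was 113 with control siRNA and 304 with Phf21a siRNA, 2.68-fold higher (1.42 ± 0.62). Axl, a kinase of the same family that is active in fibroblast-like cells (Entrez gene 26362), had signals of 5588 and 6212, a log2 ratio of 0.15 ± 0.34. A second Axl probe set was undetected at 11.5 and 0.886. Tyro3, the remaining member of the family, had signals of 126 and 86.7 (-0.54 ± 0.70), and its second probe set gave -1.22. The 3 TAM kinases thus had log2 ratios on either side of 0, and Mertk alone of them was at least 1.5-fold higher.

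Lrp1 encodes a large endocytic receptor that takes up lipoproteins and protease complexes and senses calreticulin on dying cells (Entrez gene 16971). Its brighter probe set had signals of 1546 and 1423 on the control and Phf21a siRNA arrays (-0.12 ± 0.47). The dimmer gave 165 and 283 (0.78 ± 0.57), so the probe sets differ in sign and no direction is given for the gene. Scarb1 encodes SR-BI, which takes up cholesterol from HDL and binds phosphatidylserine (Entrez gene 20778). Its 3 probe sets had signals of 1434 and 1569, 769 and 957, and 966 and 1319.9. Their log2 ratios of 0.13, 0.31 and 0.45 were each smaller than the local spread, and the first changed sign under both control scalings.

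**Figure D2:**
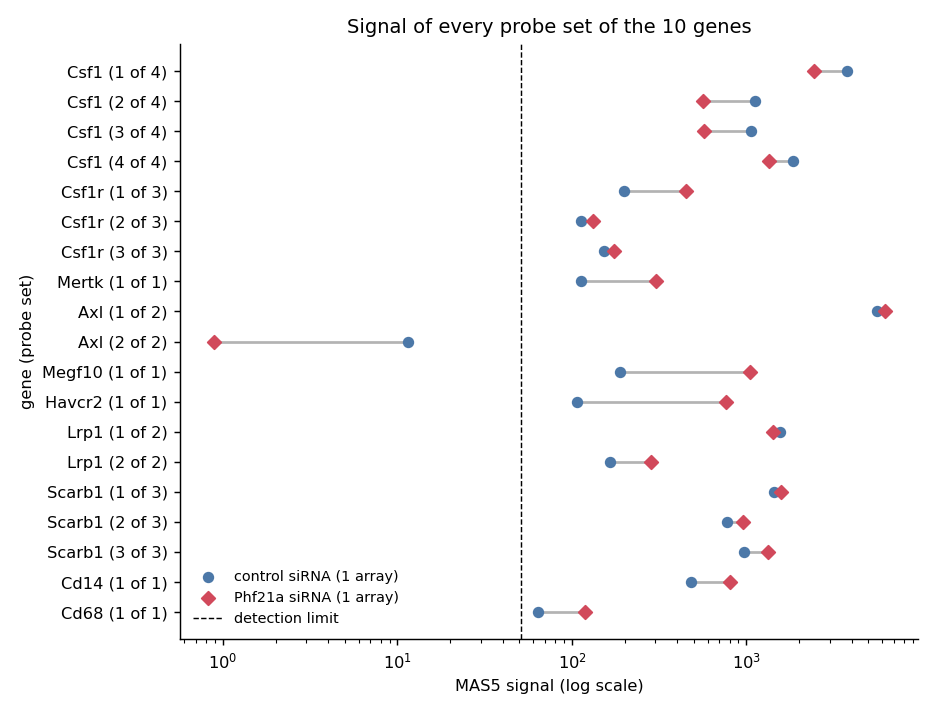
MAS5 signal (log axis) of every probe set of the 10 genes on the control siRNA array (blue circles) and the Phf21a siRNA array (red diamonds), 1 array each, with the detection limit of 51.3 dashed. Havcr2 and Megf10 show the widest gaps among detected probe sets, all 4 Csf1 probe sets run the other way, and the wide gap of the second Axl probe set lies wholly under the detection limit.

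On the deposited scale, the growth factor axis had its ligand and receptor on opposite sides of 0. Csf1 encodes macrophage colony-stimulating factor (Entrez gene 12977), and all of its 4 probe sets were lower on the Phf21a siRNA array. The brightest had a signal of 3784 with control siRNA and 2443 with Phf21a siRNA, 1.55-fold lower (-0.63 ± 0.41). The next had 1854 and 1354 (-0.45 ± 0.46), the only one inside its local spread. A pair designed on the same transcript record gave 1125 and 566 (-0.99 ± 0.51) and 1065 and 575 (-0.89 ± 0.52), and the former pair likewise shares a record, so they are not 4 separate observations. Leaving out probe sets with a suffix, which can match several transcripts or related genes, leaves no Csf1 probe set.

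Csf1r encodes the receptor kinase (Entrez gene 12978). Its brightest probe set had signals of 199.7 and 452, 2.26-fold higher on the Phf21a siRNA array (1.18 ± 0.57). The other probe sets had 153 and 174 (0.18 ± 0.61) and 113 and 131 (0.22 ± 0.62), and so lay inside their local spread. Both of these ratios were smaller than the control shifts (-0.23 and -0.73), and so changed sign under either control scaling. The size of the Csf1r difference therefore rests on a single probe set, and the mean over all 3 was 0.53, under 1.5-fold. Il34, the other ligand of the receptor, was dim at 66.7 and 121 (0.86 ± 0.71).

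Cd14 encodes the protein that hands lipopolysaccharide to TLR4 and also tethers dying cells (Entrez gene 12475, 1 probe set). Its signal was 479 with control siRNA and 804 with Phf21a siRNA, 1.68-fold higher (0.75 ± 0.51), and its log2 ratio was 0.02 after poly-A scaling and 0.52 after hybridisation scaling. Cd68 encodes a LAMP family glycoprotein of lysosomes that is widely used as a macrophage marker (Entrez gene 12514, 1 probe set). Its signals of 64.0 and 119 lay close to the detection limit (1.86-fold higher, 0.89 ± 0.71). Among its relatives, the main lysosomal membrane proteins, Lamp1 had 10199 and 14033 (0.46 ± 0.29). The brightest probe set of Lamp2 had 6387 and 8706 (0.45 ± 0.33), the lowest log2 ratio of its 4, which reached 1.17.

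Of the 18 detected probe sets of the 10 genes, 7 passed 1.5-fold upwards (14.2% of all probe sets annotated to 1 gene and detected did), and 3, all of Csf1, passed it downwards (16.1%). The brightest probe set exceeded its local spread upwards in 6 genes and downwards in 1, where 33.1% of all detected genes lie outside theirs in either direction. Of the 5 genes with several probe sets, Csf1, Csf1r and Scarb1 had detected probe sets that shared a sign on the deposited scale. Lrp1 did not, and Axl had a single detected probe set. Havcr2, Megf10, Mertk, Cd14 and Cd68 had a single probe set each, so nothing on the array checks them within the gene.

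**Figure D3:**
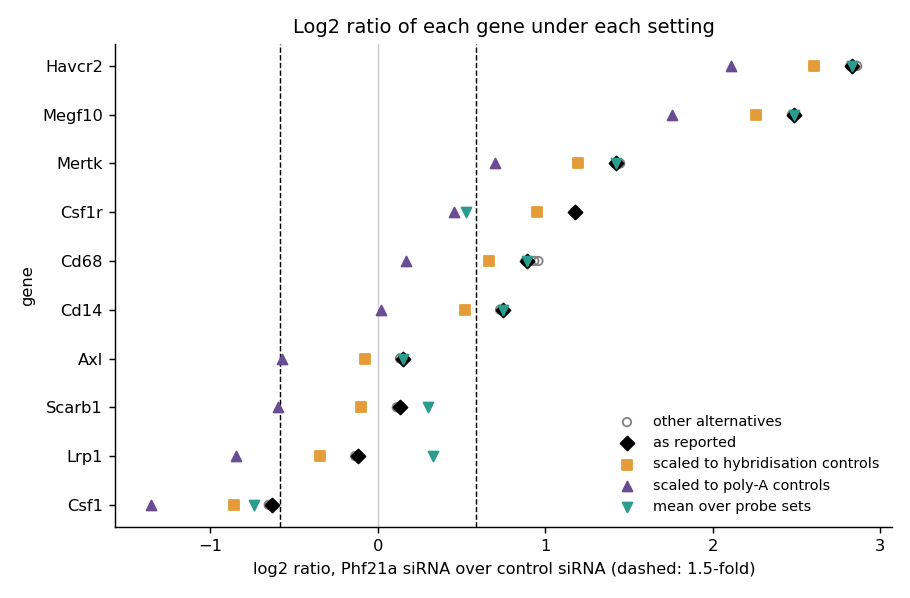
Log2 ratio of each of the 10 genes as reported (black diamonds), after scaling to hybridisation controls (orange squares) or poly-A controls (purple triangles), with the mean over probe sets (green) and under the other alternatives (open circles); dashed lines mark 1.5-fold. Havcr2, Megf10 and Mertk lie past the upper line and Csf1 past the lower line under every setting that measured them, while Axl and Scarb1 change sign with both control scalings.

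Partners of these receptors were read from lists written with earlier results of these data known. Among receptors and bridging ligands of engulfment other than the 10 genes, 18 of 28 were detected, with 3 at least 1.5-fold higher (16.7%), 1 lower (Pear1, 5.56%) and a median of 0.12. The share that was higher is near the 15.1% of all detected genes, of which 13.9% were lower, and the lists that follow are to be read against the same shares. The 3 that were higher are bright. Lgals3 encodes galectin-3, a ligand of MERTK, and had signals of 6363 and 13337 (1.07 ± 0.31). Itgav, the alpha v integrin chain, had 3465 and 7194 (1.05 ± 0.34), with the 3 detected of its 5 probe sets from 1.02 to 1.30. Itgb5, its partner chain in a receptor for MFGE8, had 1129 and 2255 (1.00 ± 0.47), with 4 probe sets from 1.00 to 1.36. Every detected probe set of Itgav and Itgb5 thus had a log2 ratio of at least 1.00 (rounded) on the deposited scale. Itgb3, a further integrin chain of the list, had 86.7 and 69.8 (-0.31 ± 0.72, second probe set 0.45). The ligands that bridge phosphatidylserine to TAM kinases and integrins lay within their local spread, with 4273 and 5201 for Gas6 (0.28 ± 0.36, second probe set -0.24), 555 and 459 for Pros1 (-0.27 ± 0.51) and 2271 and 2709 for Mfge8 (0.25 ± 0.42). Calr, which encodes calreticulin, had 13932 and 11109 (-0.33 ± 0.29), with 3 probe sets from -0.65 to -0.33.

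Signalling behind the receptors and lipid export went both ways, with 3 of 18 detected genes past 1.5-fold upwards (16.7%), 4 downwards (22.2%) and a median of 0.11. Vav3, an exchange factor of the VAV family, had signals of 229 and 616 (1.42 ± 0.52), with 3 probe sets from 0.62 to 1.82. Crkl, an adaptor of the CRK family, had 1971 and 971 (-1.02 ± 0.46), with the 3 detected of its 4 probe sets from -1.08 to -0.86. The lipid transporters differed in direction. Abca1, which exports cholesterol after engulfment, had 94.5 and 34.3 (the lower not reaching the limit), with 1 of its 3 probe sets detected. Abca7, with 1 probe set, had 169 and 298 (0.81 ± 0.59).

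Genes around CSF1R included 1 at least 1.5-fold higher (Il34, 6.25%) and 3 lower (18.8%) among 16 detected of 27, with a median of 0.03. Adam17, the protease that sheds CSF1 and its receptor, had signals of 1083 and 539 (-1.01 ± 0.51), with 3 probe sets from -1.15 to -0.79. Ets1, a transcription factor, had 1795 and 953 (-0.91 ± 0.46), with 4 probe sets from -0.91 to -0.27. Sos1, a RAS activator, had 857 and 459 (-0.90 ± 0.52), although its 4 detected probe sets ranged from -1.30 to -0.01. Spi1, which encodes PU.1, the factor that drives Csf1r in macrophages, was barely above the limit at 60.4 and 71.3.

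In the CD14 and Toll-like receptor list, 17 of 23 genes were detected. Of these, 6 passed 1.5-fold upwards (35.3%, against 15.1% of all detected genes) and 0 downwards (against 13.9%), and the median log2 ratio was 0.23. Tlr4, the lipopolysaccharide receptor that CD14 serves, had signals of 226 and 520.4 (1.20 ± 0.54), and the 3 detected of its 4 probe sets ranged from 1.19 to 1.60. Irak2, a kinase of the pathway, had 736 and 1769 (1.27 ± 0.46). Ticam1, the adaptor TRIF, had 119 and 239 (1.01 ± 0.61), and Irak1 had 618 and 1079 (0.80 ± 0.50), although its 4 probe sets ranged from 0.16 to 1.47. Ly96, the MD-2 subunit of the TLR4 receptor, had 277 and 271 (-0.03 ± 0.57), so its ratio was unlike that of its partner Tlr4, a difference that was not tested. Myd88 (0.70) and Tollip (0.64, second probe set 0.35), named after their values were seen, complete the 6, which became 3 with hybridisation scaling and 0 with poly-A scaling.

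Of the TIM-3 list 4 of 7 genes were detected, and 1 was at least 1.5-fold higher. Lgals9, which encodes galectin-9, a ligand of TIM-3, had signals of 1920 and 3251 (0.76 ± 0.43), a ratio under 1.5-fold with either control scaling. In the scavenger and lipoprotein receptor list 1 of 17 detected genes was higher (5.88%) and 2 lower (11.8%), with a median of -0.09. Lrp10, a relative of LRP1, had 1480 and 2272 (0.62 ± 0.46), Scara3 had 871 and 562 (-0.63 ± 0.53), and Olr1, a receptor for oxidised LDL, had 107 and 39.7, the latter under the limit. The macrophage scavenger receptors Msr1 (33.1 and 21.1) and Marco (5.69 and 2.09) were not detected.

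**Figure D4:**
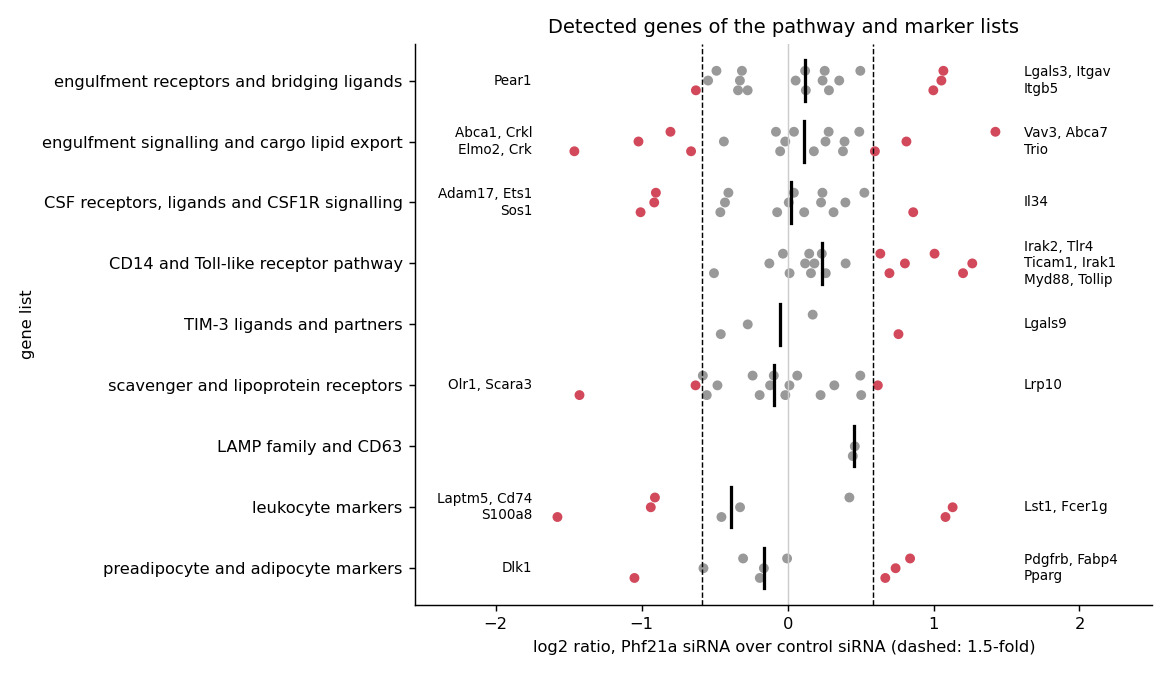
Log2 ratio (Phf21a siRNA over control siRNA) of each detected gene of the pathway and marker lists, with the median of each list as a black bar, genes at least 1.5-fold higher or lower in red and named at the sides, and dashed lines at 1.5-fold. The CD14 and Toll-like receptor list has 6 genes past the upper line and 0 past the lower, a split that scaling to poly-A controls turns into 0 and 5.

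Markers of other cells were examined because several of these receptors are read as leukocyte genes. Of 25 leukocyte markers on the array 8 were detected and 5 were above the limit on both arrays. The pan-leukocyte gene Ptprc was undetected, and the brighter of its 2 probe sets had 6.87 with control siRNA and 12.2 with Phf21a siRNA. Tyrobp (4.66 and 6.32), Itgam (15.8 and 15.3), Adgre1 (36.2 and 23.5) and Cd52 (1.61 and 3.87) were also undetected, while the macrophage lysozyme Lyz2 was at 53.6 and 71.9. Above the limit on both arrays besides Lyz2 were the Fc receptor Fcgr2b (200.5 and 160.0), S100a8 (168 and 89.6), Cd53 (98.2 and 71.7) and Lst1 (98.9 and 217, 1.13 ± 0.64). Fcgr2b was brighter on the control array than Havcr2, Megf10, Mertk, Cd68 or the brightest Csf1r probe set (199.7). Of the 5 probe sets of Fcgr2b 1 was detected, and of the 2 of Cd53 likewise 1. Summed over the list, the signal was 1053 with control siRNA and 921 with Phf21a siRNA, a sum in which 17 of the 25 genes were under the limit on both arrays. Of the 8, 2 passed 1.5-fold upwards and 3 downwards, and the median log2 ratio was -0.39. Fcer1g (25.7 and 54.4), Laptm5 (66.4 and 22.3, 1 of 5 probe sets detected) and Cd74 (54.6 and 28.5) each had a signal under the limit on a single array. The part of other cells in the ratios of the 10 genes was not tested. All 5 endothelial markers were undetected.

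Of the 10 preadipocyte and adipocyte markers 9 were detected, and Cd34 was not (19.0 and 28.4). Pdgfra had signals of 2208 and 1973 on the control and Phf21a siRNA arrays, Pdgfrb 2092 and 3743, and Col1a1 4274 and 2867. Of the 9, 3 were at least 1.5-fold higher (33.3%) and 1 was lower (11.1%). Fabp4 (0.74, 2 of 4 probe sets detected) and Pparg (0.67), which mark fat cells, and Pdgfrb (0.84, second probe set 0.13) were higher, and Dlk1, which marks undifferentiated preadipocytes, was lower (-1.05). The remaining 5 detected markers lay between, among them Cebpb (7761 and 7743). The part of differentiation stage in the ratios of the 10 genes was not tested.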

How the data were processed

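The authors deposited 1 table of signal intensity for 45101 Affymetrix probe sets, made with MAS5 per the submitters' processing notes, which name no version. The intensity is linear, and its mean without the lowest and highest 2% was 500 on both arrays. Such scaling cannot show a change in RNA per cell. Genes came from the platform's annotation, and 34945 probe sets had 1 gene symbol. Signals were raised to 12.9 (the pooled 25th percentile) before log2. The brightest detected probe set stood for a gene, with _x_at probe sets used only where no other existed. The members and lists were chosen with earlier results of these data known. Of the 184 entries in 10 lists, 12 had no single-gene probe set. The rule for named genes took every member, the up to 4 genes per list with the largest ratios past 1.5-fold, and fixed markers; any other gene was named after its values were seen. Alternatives were other scalings, floors, probe set rules, detection limits and cutoffs. The ratio and spread steps were tested on simulated data, with changes placed only in probe sets with a mean signal above the 75th percentile. That test did not cover dimmer probe sets, among them those of Havcr2, Mertk, Csf1r and Cd68. Python 3.11.15, numpy 2.4.6, pandas 2.3.3, statsmodels 0.14.6 and matplotlib 3.10.9 were used.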

Additional observations from a re-analysis of the deposited data

How the results depend on the processing

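No paired analysis was possible because each group has 1 array. With 1 array a group the limits are the missing replicate, the scaling and, for Cd68 and Il34, signals close to the detection limit. Under median centring, quantile normalization, loess and a pseudocount of 1 the counts of the 10 genes stayed at 6 higher and 1 lower. Hybridisation scaling gave 5 higher, 1 lower and a median of 0.59. The mean over probe sets gave 5 higher, 1 lower and a median of 0.64. Cutoffs of 2-fold and 3-fold left 0 lower, and the 3-fold cutoff left 2 higher. A detection limit at the 75th percentile (7 genes) gave 3 higher and a median of 0.15. Leaving out suffixed probe sets left 0 lower, since Csf1 has no other. Poly-A scaling gave 3 higher, 3 lower and a median of 0.094.

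Poly-A scaling gave 0 higher, 10 lower and a median of -0.60 for engulfment receptors and ligands, 1, 9 and -0.61 for engulfment signalling, 0, 10 and -0.70 for the CSF list, 0, 5 and -0.49 for the CD14 and Toll-like list, 0, 2 and -0.78 for the TIM-3 list, 0, 12 and -0.82 for scavenger receptors, 0, 5 and -1.11 for leukocyte markers and 0, 6 and -0.89 for preadipocyte markers, and a median of -0.27 for the LAMP list. Hybridisation scaling gave 3 lower engulfment receptors, 6 lower CSF genes, 3 higher and 1 lower Toll-like genes, 0 higher and 1 lower TIM-3 genes, 0 higher and 5 lower scavenger receptors, and 1 higher and 2 lower preadipocyte markers. Quantile normalization and loess each gave 2 higher scavenger receptors and 2 lower preadipocyte markers. With a floor at the detection limit 1 leukocyte marker was higher and 1 lower. The mean over probe sets gave 3 lower engulfment receptors, 2 higher CSF genes, 2 lower Toll-like genes, 2 higher scavenger receptors and 1 higher LAMP gene. Without suffixed probe sets there were 0 higher CSF genes, 1 lower Toll-like gene, 0 higher TIM-3 genes, 1 higher and 0 lower leukocyte markers (median 0.42), and 0 higher and 2 lower preadipocyte markers. The stricter detection limit gave 0 higher CSF genes, 0 lower engulfment receptors and 1 lower scavenger receptor, and no limit gave 4 higher and 6 lower CSF genes, 8 lower leukocyte markers and 2 higher scavenger receptors. The cause of these moves was not tested.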

Other observations

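The genes that lie beside the 10 receptors and ligand on the mouse genome were read in the same way, a choice made after values were seen. Of the 20 protein-coding neighbours, 1 on each side in the RefSeq annotation of GRCm38.p6, 13 were detected. At least 1.5-fold higher were 2 of them (15.4%, against 15.1% of all detected genes), Pdgfrb beside Csf1r (2092 with control siRNA and 3743 with Phf21a siRNA, 0.84 ± 0.42, second probe set 0.13) and Stat6 beside Lrp1 (884 and 1497, 0.76 ± 0.46). At least 1.5-fold lower was 1 (7.69%, against 13.9%), Ahcyl1 beside Csf1 (4969 and 3268, -0.60 ± 0.37). The neighbours of Megf10, C330018D20Rik (246 and 179) and Prrc1 (1029 and 799), had log2 ratios of -0.46 and -0.37, on the other side of 0 from Megf10. Med7 beside Havcr2 had 1452 and 1988 (0.45 ± 0.46).

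Csf1r, Cd14 and Megf10 share chromosome 18. Of the 286 detected genes of that chromosome 17.8% were at least 1.5-fold higher and 12.2% lower, against 15.1% and 13.9% of all detected genes, and their median log2 ratio was 0.03.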
